A study of Arabidopsis thaliana and Marchantia polymorpha with 6 samples.

Results

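The landscape of HY5 binding was compared between a seed plant and a liverwort, as 2 lists of binding events spread over whole chromosomes. The lists are AtHY5, the HY5 protein of Arabidopsis thaliana, on the 5 nuclear chromosomes, and MpHY5, the HY5 protein of Marchantia polymorpha, on chr1 to chr8. All 16825 AtHY5 events were members, and 31471 of the 32067 MpHY5 events were, after those on the sex chromosome V and on unplaced scaffolds were set aside. Together the 48296 members are part of 55591 events in the 3 event lists used for the series. Membership used the protein and the chromosome name and no measured value.

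The method was DNA affinity purification sequencing (DAP-seq), in which a recombinant protein on beads picks fragments out of naked genomic DNA in a tube. Per the labels, the proteins were expressed in Escherichia coli and held on amylose beads, and the DNA had a mean fragment length of 200 bp. The AtHY5 group used DNA of 10-day-old seedlings of genotype Col-0 grown in MS medium, and the MpHY5 group used DNA of 21-day-old gemmalings of genotype Tak-1 grown in 0.5x GB5 medium. With 1 library in each group there is no replicate spread, and no test compares the lists. The DNA carries no nucleosomes, so accessibility in the living plant does not enter the measurement. Genomes, proteins, libraries and event calling all differ between the lists, and their parts in any difference cannot be told apart.

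HY5 is a basic leucine zipper (bZIP) transcription factor that accumulates in light and promotes seedling greening, pigment synthesis and short stems in Arabidopsis. It binds as a dimer to short DNA elements with an ACGT core, the best known of which is the G-box. Arabidopsis chromosomes carry their genes mostly on the arms, around a gene-poor and repeat-rich pericentromere. Marchantia autosomes are known for a more even mixture of genes and repeats along their length.

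With all events counted, the mean densities lay close together. AtHY5 had 141 events per Mb over 119 Mb, and MpHY5 had 151 events per Mb over 208 Mb, where a chromosome was counted as ending at its last event. Above the lowest score that all chromosomes of a list share, described further on, the densities were 95.1 and 146 events per Mb. That cut kept 67.3% of the AtHY5 list but 96.2% of the MpHY5 list. As the cuts were unequal, these densities cannot show which events made the means close. The depth of either library is unknown, so these means were not compared as binding. What differed was the layout. Over whole bins of 1 Mb, AtHY5 counts ran from 19 to 239 with a mean of 139 ± 54.3 (SD over 116 bins). MpHY5 counts ran from 96 to 204 with a mean of 151 ± 19.4 (SD over 203 bins). The coefficient of variation was 0.390 for AtHY5 (95% chi-square interval 0.346 to 0.448) and 0.128 for MpHY5 (0.117 to 0.142). These intervals treat bins as independent, which the AtHY5 bins were not, as the values for neighbouring bins show. Counting error alone gives 0.0848 and 0.0813 at these means. After it was taken off, 0.381 was left for AtHY5 and 0.0991 for MpHY5.

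The MpHY5 bins clustered closely around their median of 153, and 193 of 203 bins, or 95.1%, lay within 25% of it. In AtHY5 54 of 116 bins, or 46.6%, lay in that range around a median of 147. Under 0.5 times the median lay 17 AtHY5 bins and 0 MpHY5 bins. The AtHY5 variation was also broad in scale. As bins grew from 10 kb to 5 Mb (5000 kb), the variation beyond counting error fell from 0.595 to 0.342 in AtHY5, but from 0.447 to 0.0437 in MpHY5. Neighbouring 1 Mb bins had similar AtHY5 counts (Pearson 0.82, Spearman 0.82, over 111 pairs of bins). Neighbouring MpHY5 bins did not (Pearson 0.02, Spearman 0.01, over 195 pairs). At a distance of 3 Mb the Pearson values were 0.55 and 0.10. Bins of 1 list share a library, so these correlations describe the lists.

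**Figure D1:**
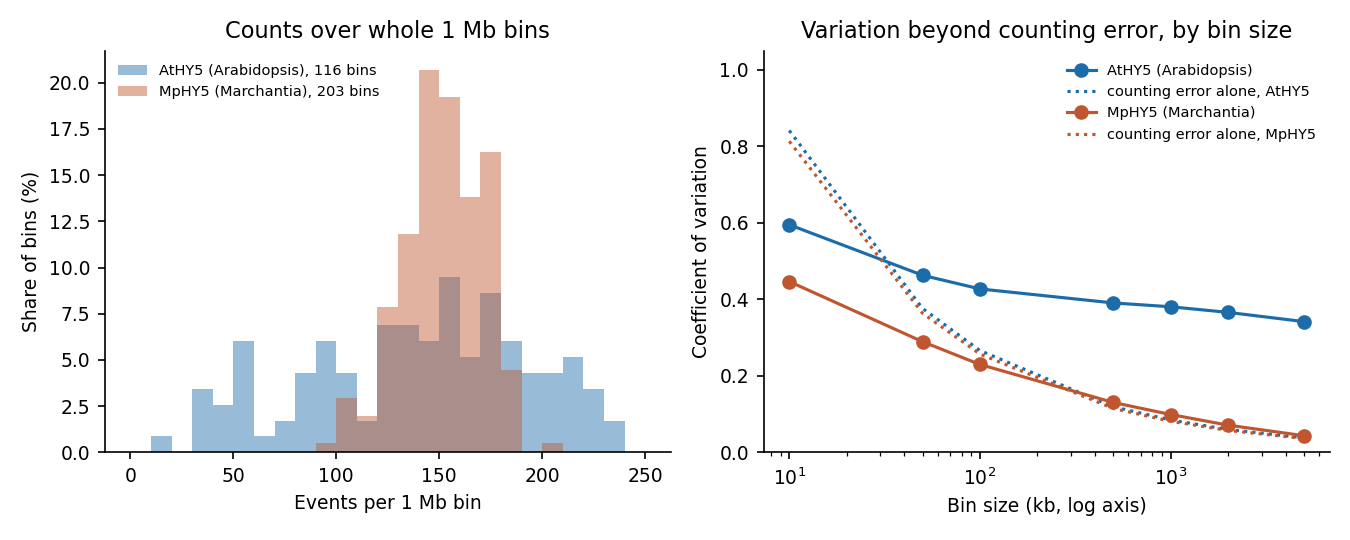
Left, the share of whole 1 Mb bins (y axis, %) by number of events per bin (x axis) for AtHY5 (116 bins) and MpHY5 (203 bins). Right, the coefficient of variation beyond counting error (y axis, solid lines with points) by bin size in kb (x axis, log) and the part that counting error alone gives (dotted); at 5000 kb the AtHY5 value is 0.342 and the MpHY5 value 0.0437.

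Every AtHY5 chromosome had a deep low in gene-poor sequence. Read mapping and assembly gaps at these lows were not examined. On chromosome 3 the bin from 13000001 to 14000000 held 19 events, and the bin from 15000001 to 16000000 held 36. On chromosome 1 the bin from 14000001 to 15000000 held 31. The lowest bin of chromosome 2 held 37 events, that of chromosome 4 held 46 and that of chromosome 5 held 54. Each was 0.189 to 0.347 times the mean bin of its chromosome. On chromosomes 1, 3 and 5 the lowest bin lay near the midpoint, at 0.0460 to 0.151 of the way to the end. On chromosomes 2 and 4 it lay off centre, at 0.543 and 0.623 of the way. The lowest bins held 15 to 58 protein-coding genes, against a median of 261 over all bins. With all events counted, the densest AtHY5 bins were 239 events in the first Mb of chromosome 1, 236 from 23000001 to 24000000 on chromosome 5, and 224 in the first Mb of chromosome 5. The lowest score differs by chromosome, as described further on, and the order of bins depends on it. Above the common lowest score these 3 bins held 153, 141 and 150 events. The bin from 17000001 to 18000000 on chromosome 4 then held 156, and that from 4000001 to 5000000 on chromosome 3 held 154. The lowest bin of chromosome 5 then held 22, fewer than the 36 from 15000001 to 16000000 on chromosome 3. Coordinates are those of the list, whose build is named as TAIR10.

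No MpHY5 chromosome fell as far. Its lowest bins held 0.614 to 0.839 times the mean of their chromosome. On chr1 the lowest count of 124 occurred in 2 bins, at 0.0508 and 0.509 of the way from the midpoint to the end, and on chr4 the lowest count of 104 occurred at 0.150 and 0.740. On the other 6 chromosomes the lowest bin lay at 0.519 to 0.958 of the way. The sparsest bins were on chr5 from 1000001 to 2000000 with 96 events, on chr2 from 22000001 to 23000000 with 102, and on chr6 in the first Mb with 103. The densest was on chr5 from 5000001 to 6000000, with 204 events, a few Mb from the sparsest bin of that chromosome. For the Marchantia list the sources used here name no build of that species.

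**Figure D2:**
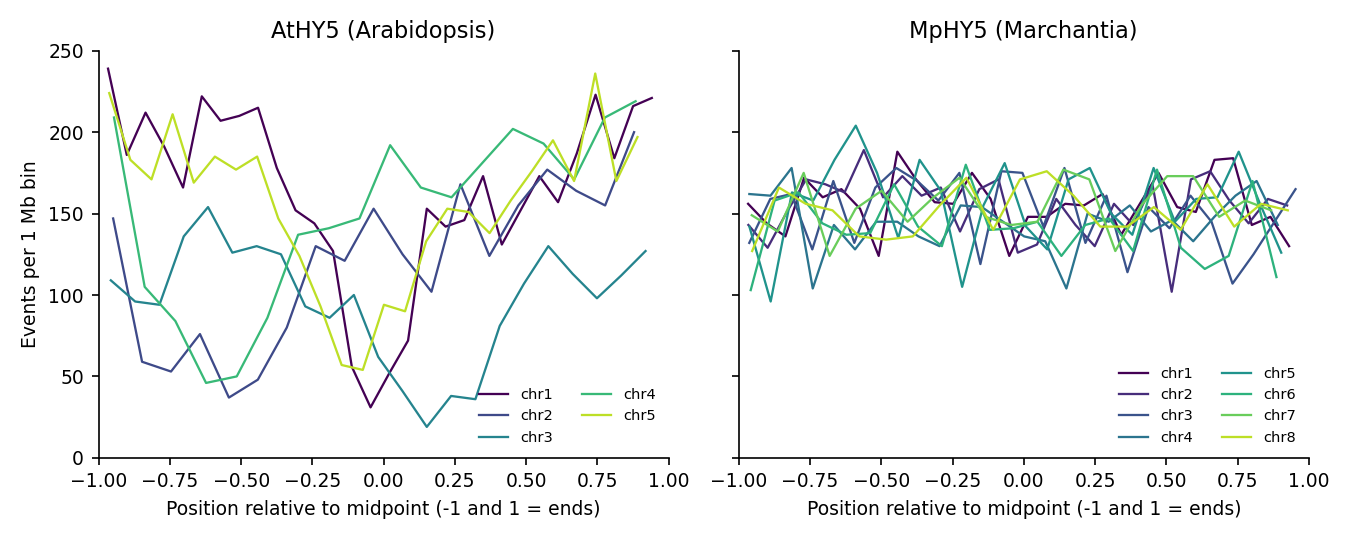
Events per whole 1 Mb bin (y axis) by position relative to the chromosome midpoint (x axis, ends at -1 and 1), 1 line per chromosome, for AtHY5 (left) and MpHY5 (right). Each AtHY5 line falls to a lowest bin of 19 to 54 events, while the MpHY5 lines stay between 96 and 204.

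From centre to end the lists also differed. Positions were put in 5 classes of equal width by relative distance from the chromosome midpoint. AtHY5 density rose at every step, from 98.1 events per Mb in the innermost class through 129, 146 and 156 to 176 in the outermost. The outermost class had 1.80 times the density of the innermost (exact interval from the counts 1.71 to 1.89). MpHY5 gave 151, 150, 153, 157 and 146 events per Mb in the same order, and a ratio of 0.968 (0.934 to 1.003). The outermost AtHY5 class was denser on each of the 5 chromosomes, by 1.19 times on chromosome 2 (1.053 to 1.34) up to 2.58 times on chromosome 1 (2.32 to 2.86). The MpHY5 ratios ran from 0.883 on chr5 to 1.16 on chr4, and only these 2 of 8 had intervals that left out 1. The ratio intervals of both lists take events as independent counts. Over 1 Mb bins the variance was 21.2 times the mean in AtHY5 and 2.49 times in MpHY5, so these intervals are too narrow. Pooled over the AtHY5 chromosomes, the last Mb before the ends stood out most, with 199 events per Mb (190 to 208), against 155 (148 to 163) in the next Mb. The chromosomes did not all share this. The first Mb held 239 events on chromosome 1, the most of its bins. On chromosome 3 it held 109, fewer than the 154 from 4000001 to 5000000. The last Mb of MpHY5 had 142 (137 to 148) and the next 145 (140 to 151).

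The AtHY5 trend went with the gene density. Protein-coding genes rose from 160 per Mb in the innermost class to 282 per Mb in the outermost. Per 100 genes the classes held 61.5, 58.3, 62.3, 61.6 and 62.7 AtHY5 events from centre to end. These classes mix gene-poor and gene-rich bins, which differed: the 20 bins with fewer than 0.5 times the median number of genes held 86.1 events per 100 genes, and the other 96 held 59.6. Over the 116 bins of 1 Mb, event and gene numbers correlated with Pearson 0.79 and Spearman 0.66, and within the 96 gene-rich bins with Pearson 0.49 and Spearman 0.42. In the gene-poor bins the mean was 55.1 events, with a range of 19 to 94. In the gene-rich bins the mean was 157, with a range of 59 to 239. Without the gene-poor bins the AtHY5 coefficient of variation fell to 0.262 (0.229 to 0.305), which is still above that of all MpHY5 bins. Gene positions came from a table of TAIR10.1 and were used for counts only. A Marchantia gene table was not used here.

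The spread in density between AtHY5 chromosomes went with the lowest score that each chromosome holds. The score is the value that the authors' event caller gave to each event, and its meaning is not stated. Its lowest value was 59 on chromosomes 1 and 5, 61 on chromosome 4, 73.2 on chromosome 2 and 94 on chromosome 3. The density of all events went the other way, with 165, 158, 152, 123 and 97.9 events per Mb on chromosomes 1, 5, 4, 2 and 3. When events under 94 were left out on every chromosome, 11329 events or 67.3% of the list remained. The densities were then 96.9, 92.0, 97.9, 94.5 and 93.5 events per Mb on chromosomes 1 to 5, and the highest was 1.06 times the lowest in place of 1.68 times. Chromosomes 2 and 3 also hold the rRNA genes of the gene table, with 12 and 16 events within 10 kb of them. The part of these blocks in the lowest scores was not tested. The MpHY5 floors ran only from 53 to 56, and its chromosome densities from 142 to 155 events per Mb. With events under 56 left out they ran from 137 to 153.

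**Figure D3:**
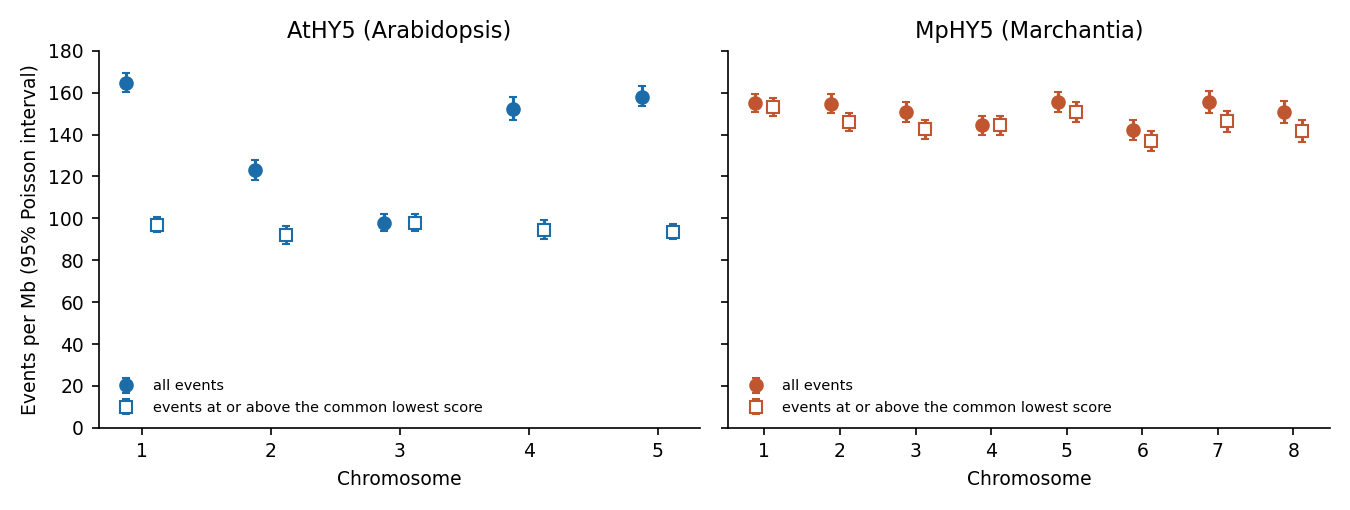
Events per Mb (y axis, bars are 95% Poisson intervals) by chromosome (x axis) for AtHY5 (left) and MpHY5 (right), with all events (filled circles) and with events at or above the highest of the chromosomes' lowest scores (open squares, 94 for AtHY5 and 56 for MpHY5). The AtHY5 chromosomes run from 97.9 to 165 with all events and from 92.0 to 97.9 above the common lowest score.

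The common floor left the contrast between the lists in place. AtHY5 kept a coefficient of variation of 0.372 (0.330 to 0.428) and MpHY5 one of 0.129 (0.117 to 0.143). The outermost over innermost ratios were 1.88 (1.76 to 1.998) and 0.970 (0.935 to 1.01). For AtHY5 the correlation with gene number was Pearson 0.88 and Spearman 0.77 over all bins and 0.69 and 0.595 over the gene-rich bins, which had a coefficient of variation of 0.227.

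Distances between consecutive events had a similar middle and different ends. The mean distance was 7078 bp for AtHY5 and 6612 bp for MpHY5, and the medians were 3780 bp and 3908 bp. Divided by the mean of the list, the median was 0.534 for AtHY5 and 0.591 for MpHY5, where an even random spread gives 0.693 by formula. Below 1000 bp lay 21.2% of AtHY5 distances (Wilson interval 20.6 to 21.8) and 20.2% of MpHY5 distances (19.8 to 20.7). An even spread at the own density of each 1 Mb bin gives 14.9% and 14.2%, so close spacing exceeded regional density by 1.42 times in both lists. With the density of bins of 0.1 Mb the excess was 1.32 and 1.31 times. Above the common floor the AtHY5 excess was 1.72 times and its share 17.7%, which is below the 19.4% of MpHY5. The order of the 2 shares thus turned with the floor, which left out more of the AtHY5 list than of the MpHY5 list.

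Within the short distances, with all events counted, the classes most in excess differed between the lists. AtHY5 distances peaked at 100 to 150 bp, with 348 of them, 2.60 times the number from the bin's own density. MpHY5 distances were most in excess at 500 to 550 bp, with 475 of them or 2.13 times, beside 480 or 2.12 times at 400 to 450 bp. For the class from 50 to 200 bp AtHY5 had 2.09 times the number from its bins (Poisson interval 1.95 to 2.23) and MpHY5 1.18 times (1.0997 to 1.26). For the class from 400 to 550 bp the order was the other way, with 1.49 times (1.37 to 1.61) in AtHY5 and 2.101 times (1.99 to 2.21) in MpHY5. These 2 classes were set after the distances had been seen. By chromosome, the 50 to 200 bp excess ran from 1.75 to 3.30 over the 5 AtHY5 chromosomes and from 0.994 to 1.301 over the 8 MpHY5 chromosomes. For 400 to 550 bp the ranges were 1.29 to 2.04, reached on AtHY5 chromosome 3, and 1.93 to 2.29, so they overlapped.

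In AtHY5 both spacings were more in excess among high scores, the shorter one most. Among AtHY5 events at or above the median score, taken as a list of their own, the 50 to 200 bp excess was 4.30 times (3.91 to 4.72), and among those below it 1.12 times (0.929 to 1.34). MpHY5 gave 1.83 times (1.64 to 2.03) and 0.891 times (0.758 to 1.04). For 400 to 550 bp AtHY5 gave 1.83 times (1.57 to 2.11) above the median and 1.301 times (1.09 to 1.54) below. The 400 to 550 bp excess of MpHY5 was about the same on either side of the median, at 1.97 times (1.77 to 2.19) above and 2.16 times (1.95 to 2.39) below. Above the median the intervals of the lists at 400 to 550 bp thus overlapped. Distances under 50 bp were rare, with 39 in AtHY5 and 5 in MpHY5, or 0.286 and 0.0208 times the even spread. How close the caller can place separate events is not stated, and its part in the spacings was not tested. Of the AtHY5 pairs 100 to 200 bp apart, 72.2% had both centres in the same protein-coding gene (68.5 to 75.6), and of those 400 to 600 bp apart 58.2% did (54.6 to 61.7). Both centres lay in genes, the same or not, for 72.4% and 61.4% of these pairs and for 45.8% of pairs 2000 to 5000 bp apart, and 65.3% of all AtHY5 events lay in a gene.

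**Figure D4:**
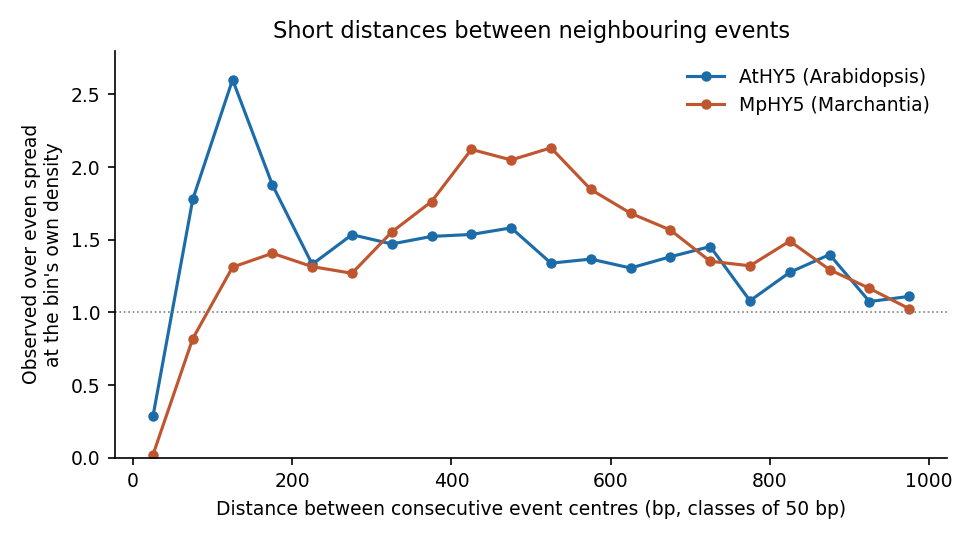
Number of distances between consecutive event centres over the number that an even spread at the own density of each 1 Mb bin gives (y axis, 1 is the dotted line), in classes of 50 bp up to 1000 bp (x axis). AtHY5 peaks at 2.60 in the 100 to 150 bp class and MpHY5 at 2.13 in the 500 to 550 bp class.

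For the closest spacing, the AtHY5 pair under 100 bp apart whose lower score was the highest was named on each chromosome. On chromosome 5 it lay inside WRKY48, a WRKY transcription factor gene, with scores of 1194.9 (event at 20092439 to 20092638) and 2327.1 and centres 33 bp apart. On chromosome 4 it lay inside AT4G30250, with scores of 2234.9 and 1416.1 and centres 58 bp apart. On chromosome 1 it lay inside AT1G80440, with 946 and 2245.4 and centres 86 bp apart. On chromosome 3 it lay 437 bp from AT3G28430, with 750.9 and 1361.8. On chromosome 2 it lay at the rRNA block, inside AT2G01008, with scores of 17523.4 and 24840.6 and centres 1 bp apart. Outside that block the pair was inside AT2G28780, with 1028 and 1938.6, and this exception was added after its values were seen.

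Stretches of 200 kb or more without an event occurred on AtHY5 chromosomes 1, 3 and 5 and on no MpHY5 chromosome. On chromosome 1 no AtHY5 event lay between the centres 14598519 and 14924026, a distance of 326 kb or 53.6 times the chromosome's mean distance. On chromosome 3 the longest stretch was 282 kb (27.6 times), on chromosome 5 it was 204 kb (32.2 times), and on chromosomes 2 and 4 it was 119 kb (14.7 times) and 111 kb (17.0 times). The longest MpHY5 stretch of each chromosome was 85.1 to 113 kb, or 13.1 to 17.5 times the mean, a range that takes in AtHY5 chromosomes 2 and 4. Distances of 100 kb or more numbered 20 in AtHY5 and made up 2.53% of the length, against 3 and 0.160% in MpHY5. Whether reads can be mapped in these stretches was not examined. The distance from the ends of the AtHY5 stretches to the nearest gene ran from 0 bp for AT4G05632 to 126169 bp for AT3G33187. It was 971 bp for AT1G40083, 1560 bp for AT5G36290 and 2898 bp for AT2G09388, and 16651 bp for AT4G05590, 53991 bp for AT1G38790 and 82421 bp for AT3G32980. MCM5, which encodes a subunit of the replicative DNA helicase, lay 8244 bp from the left end on chromosome 2. GSL09, a glucan synthase-like gene, lay 7484 bp from the right end on chromosome 5.

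The scores had a longer upper tail in AtHY5, after each list was divided by its own median (117 for AtHY5 and 84 for MpHY5). The lowest score was 0.504 times the median in AtHY5 and 0.631 times in MpHY5, so the lists do not begin at the same depth below their medians. The 90th percentile was 2.93 times the median in AtHY5 (order-statistic interval 2.85 to 3.04) and 2.098 times in MpHY5 (2.075 to 2.13). The 99th percentile was 10.6 times (9.96 to 11.3) and 4.55 times (4.37 to 4.77). At least 5 times the median were 666 AtHY5 events, or 3.96% (3.67 to 4.26), and 238 MpHY5 events, or 0.756% (0.666 to 0.858). At least 10 times the median were 194 or 1.15% (1.003 to 1.33) and 59 or 0.187% (0.145 to 0.242). With the lowest score of the list taken off every score, the 99th percentile stood at 20.3 times the median in AtHY5 and 10.6 times in MpHY5.

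The far end of the AtHY5 tail belonged to the rRNA blocks. The level that the top 0.1% of events exceed was 175 times the median with them (89.8 to 368) and 21.5 times without them (19.5 to 24.5). It was 17.1 times in MpHY5 (13.0 to 22.1), an interval that overlaps that of AtHY5 without the blocks. No rRNA blocks were left out of the MpHY5 list, as a Marchantia gene table was not used. The top 1% of events held 31.0% of the summed AtHY5 score with the blocks and 9.37% without, against 7.21% in MpHY5. Leaving the blocks out took away 28 events and moved the 99th percentile only to 9.91 times. The highest AtHY5 event, on chromosome 3 from 14194632 to 14194831, had 1286 times the median. Outside the blocks the highest event of each chromosome lay inside AT1G44050 (49.4 times), AT2G21420 (41.3 times), SDR2, a short-chain dehydrogenase gene (24.7 times), CYP86A2, a fatty acid hydroxylase gene of cutin synthesis (20.6 times), and AT5G42280 (55.5 times). The highest MpHY5 event, on chr4 from 22507099 to 22507298, had 77.3 times its median.

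**Figure D5:**
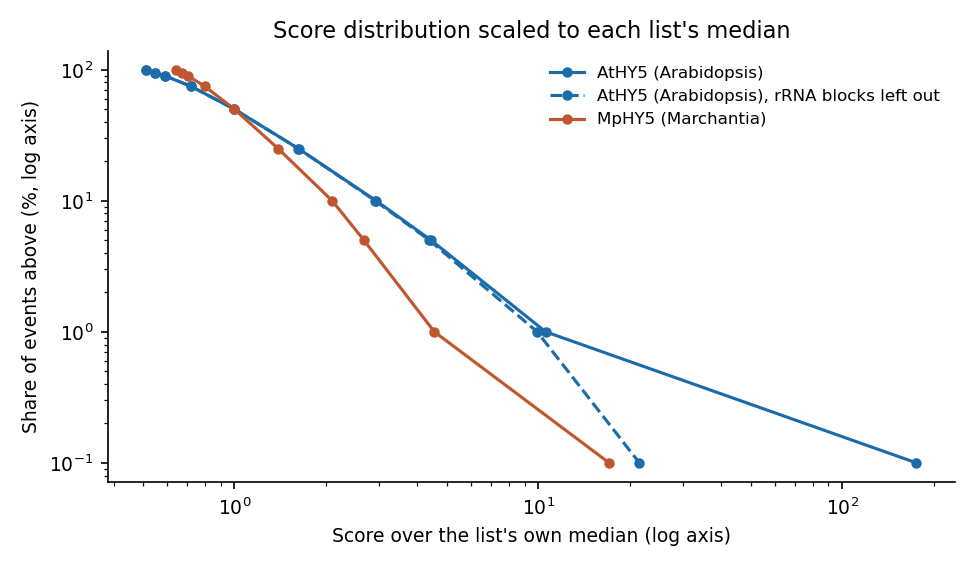
Share of events above a score (y axis, %, log) by score over the list's own median (x axis, log), at fixed percentiles, for AtHY5 with and without the rRNA blocks and for MpHY5. At the 99th percentile AtHY5 stands at 10.6 times its median and MpHY5 at 4.55 times; the level exceeded by the top 0.1% of AtHY5 events falls from 175 to 21.5 times without the blocks.

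The strongest MpHY5 events were not spread evenly, unlike the list as a whole. Of the 59 events with at least 10 times the median, 40 or 67.8% (55.1 to 78.3) lay in the outermost class, which held 19.3% of all MpHY5 events. Of these 59, 13 lay in a stretch of 150 kb at the start of chr1, between the centres 9288 and 159618, with scores of 10.0 to 51.2 times the median. A further 4 lay within 101 kb on chr4, from 22506637 to 22607719, and another 4 within 11.8 kb on the same chromosome, from 25008898 to 25020687. The outermost share was 30.7% (25.2 to 36.8) of the events with at least 5 times the median and 20.1% (18.8 to 21.4) of those with at least 2 times. In AtHY5 the outermost class held 33.5% of the events with at least 10 times the median (27.2 to 40.4), or 31.9% without the rRNA blocks (25.3 to 39.4), beside 24.98% of all events. Repeat content at these places was not examined.

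Averaged over the classes from centre to end, the median score varied little, but single AtHY5 bins stood apart. The median score by class from centre to end stayed within 0.964 to 1.03 times the list median in AtHY5 and 0.995 to 1.01 times in MpHY5. By bin of 1 Mb it ran from 0.688 to 2.95 times in AtHY5 and from 0.875 to 1.33 times in MpHY5. The highest was on AtHY5 chromosome 2 from 3000001 to 4000000, with 76 events and 121 genes. The bins on either side of it had 0.869 and 0.991 times. DNA copy number and read mapping in that bin were not examined, so its high median cannot be read as strong binding. The second highest, 2.003 times on chromosome 3 from 14000001 to 15000000, was 1.17 times without the events of the rRNA block. The lowest was on chromosome 5 from 12000001 to 13000000, with 54 events. By chromosome the median ran from 0.906 to 1.33 times in AtHY5, highest on chromosome 3, where the lowest score was also highest, and from 0.974 to 1.06 times in MpHY5. Above the common floor the AtHY5 chromosome medians ran from 1.31 to 1.35 times the list median. Events with a neighbour closer than 100 bp had higher scores in both lists, with a median of 2.13 times the list median in AtHY5 (1.99 to 2.31, 557 events) and 1.404 times in MpHY5 (1.31 to 1.501, 401 events). Events 1000 to 5000 bp from their nearest neighbour had 0.949 and 0.988 times.

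At the gene level, the AtHY5 list was set against 24 genes known as HY5 targets or partners. An event lay inside or within 1000 bp of 17 of them, or 70.8% (50.8 to 85.1), while 47.7% of all 27444 protein-coding genes had one. The median of the highest score was 1.62 times the list median for these 17 and 1.15 times for all genes with an event. RUP1, a repressor of ultraviolet-B signalling, had 4 events and the highest score among these genes, 529.1 or 4.52 times the median. CHS, the first enzyme of flavonoid synthesis, had 4 events with a highest score of 258.8, and MYB12, a flavonol regulator, had 4 with 234.8. FLS1, F3H, ELIP1 and ELIP2 had 2 events each, with highest scores of 1.62 to 1.92 times the median, and MYB75 had 2 with 1.33 times. RUP2, FHY1 and FHL stood at 2.26, 2.11 and 1.16 times. The rest with an event had highest scores below the list median. RBCS1A, a Rubisco small subunit gene, had 1 event at 63, near the bottom of the list. TPS1 stood at 0.632 times with 3 events, LHCB1.3 at 0.701, NRT2.1 at 0.803, DFR at 0.928 and COP1 at 0.940 times. TT5, LDOX, HY5, HYH, SWEET11, SWEET12 and ELF4 had none in this range. Their nearest events lay 1177 bp away for HYH, 1362 bp for HY5 and 12166 bp for SWEET12. The list was chosen with results of these data known, and no test was run on it.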

How the data were processed

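Per the labels' protocols, naked genomic DNA was bound by recombinant protein and sequenced. The submitters' processing notes name Trim Galore and Bowtie2, and GEM made the event calls, per the file headers. Their versions and settings are not stated there. The deposited lists give each event as a 200 bp interval with a score per event. How the authors normalized the score is not stated, so it was used within a list only. The MpHY5 list is deposited with the series, and was assigned to its group by the protein and organism in its name.

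Positions are 1-based. Distances are between centres of consecutive events. Bins of 1 Mb started at each chromosome's first base, and incomplete last bins were left out. Chromosome lengths ran to the last event. The number of short distances given by an even spread was computed by the exponential formula from each bin's density. Intervals (95%) are Wilson for shares, Poisson for densities, exact binomial for ratios of counts, chi-square for variation over bins, and order-statistic for percentiles. They treat events or bins as independent and hold no spread between libraries, as each group has 1 library. Depth is unknown. Scripts used Python 3.11.15 with numpy 2.4.6, pandas 2.3.3 and scipy 1.17.1, and were tested on simulated lists. Named AtHY5 genes hold or lie nearest to the highest event outside 10 kb of rRNA genes, the ends of the longest distance and the highest-scoring pair under 100 bp apart, on each chromosome. Alternatives covered bin size, score range, distance and percentile; assembly lengths in place of the last event were not run. Members, lists and rules were chosen with earlier results of these data known. AtPIF4, MpPIF and the inputs were not analysed here.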

Additional observations from a re-analysis of the deposited data

Results flagged for a closer look

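The MpHY5 list holds 596 events outside chr1 to chr8, which the comparisons above did not use and which number more than the 3 counts set as a floor. Of these, 377 lie on chromosome V, where the lowest score was 78, against 53 to 56 on the autosomes. Autosomal density was 3.005 times that of V with all events and 1.74 times with autosomal events under 78 left out. The AtPIF4 list holds 6699 events that were not used in the comparison either.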

How the results depend on the processing

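Over 12 results and 161 values from other settings, 104 lay inside the interval of the main value of their result and 57 outside it. Some settings changed the quantity itself, such as the percentile, the bin size or the distance limit. AtHY5 stayed the more uneven list in 9 of 9 settings, had the higher outermost over innermost ratio in 6 of 6, and had the longer score tail in 6 of 6. The excess of short distances had no stable order, with AtHY5 higher in 6 of 8 settings. The MpHY5 variation was 0.174 in bins of 0.5 Mb and 0.0916 in bins of 2 Mb (0.131 and 0.0713 beyond counting error), 0.160 for events at or above the median score, and 0.174 for those below it (0.130 beyond counting error). Joining events under 1000 bp apart gave 0.0782 beyond counting error. AtHY5 gave 0.488 below the median score (0.473 beyond counting error), 0.262 without gene-poor bins (0.249) and 0.227 with the common floor as well (0.205). Its outermost over innermost ratio was 2.14 with 10 classes, 1.35 for the outer over the inner part in 2 classes, 2.69 by distance from the gene-poorest bin, and 1.91 and 1.69 for events above and below the median score. Without chromosomes 1, 2, 4 and 5 in turn it was 1.59, 1.97, 1.99 and 1.68. Distances under 500 bp made up 12.1% of AtHY5 and 9.99% of MpHY5 (1.55 and 1.35 times the even spread), and those under 2000 bp 33.7% and 32.7% (1.23 and 1.24 times). Among events at or above the median score, the shares under 1000 bp were 16.3% and 11.6% (2.07 and 1.54 times). With distances under 100 bp left out they were 19.9% and 19.7% (1.47 and 1.54 times). With 0.1 Mb densities the excess was 1.32 and 1.31 times, with the whole chromosome's density 1.56 times for AtHY5, and without chromosome 1 it was 1.47 times. The common floor gave shares of 17.7% and 19.4%, an AtHY5 excess of 1.72 times and an AtHY5 99th percentile of 9.14 times the median. The tail stood at 2.93 and 2.098 times the median at the 90th percentile and at 175 and 17.1 times at the level of the top 0.1%. The 99th percentile was 8.32 and 4.30 for events with no other within 1000 bp, and 20.3 and 10.6 after the lowest score was taken off. It was 9.91 for AtHY5 without the rRNA blocks. For MpHY5 it was 4.18 among its 16825 highest-scoring events alone, over their own median. That number is the size of the AtHY5 list. The causes were not tested. The common floor, the gene-poor bins, the bins relative to their own chromosome, the distance from the gene-poorest bin and the score above the lowest were chosen after seeing the data. Assembly lengths were not run. No paired analysis was possible because each group has 1 library. Depth is unknown, and its part in the lowest scores was not tested.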
